A study of Saccharomyces cerevisiae with 5 samples.

Results

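The transcripts described here encode the protein part of the large subunit of the cytosolic ribosome of budding yeast, Saccharomyces cerevisiae. They were taken as every gene whose symbol was RPL followed by a number and an optional A or B, together with RPP0, RPP1A, RPP1B, RPP2A and RPP2B, and genes of the mitochondrial ribosome (MRPL) were left out. This gave 80 of the 5583 genes on the arrays, carried on 98 of 7680 spots of the first array design and, for 78 of the genes, on 156 of 12800 spots of the second. All 80 symbols were found in the R64 reference gene table. In the study, RNA recovered with zz-tagged Yra1 (zzYra1 IP) was compared with RNA recovered with the zz tag alone (zz IP, the control immunoprecipitate) by hybridising cDNA from both to spotted arrays with 2 channels. The 5 arrays form 1 group, called arrays 1 to 5 here. On arrays 1, 2 and 5 channel 2 held the zzYra1 IP and channel 1 the zz IP, while arrays 3 and 4 had them exchanged. Arrays 1 to 3 were of the first array design and arrays 4 and 5 of the second. The labels give one day for arrays 4 and 5, so day and design cannot be told apart for them. The sources used here give neither the strain, the promoter of the tagged gene and the growth conditions nor whether arrays came from separate cultures. P-values therefore reflect the spread among 5 hybridisations, and that spread may be technical.

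Yra1 is an RNA-binding adaptor of nuclear mRNA export, which hands mRNA to the export receptor Mex67. Ribosomal protein genes are among the most strongly transcribed genes of growing yeast, and most of them have introns, unlike most other yeast genes. After an ancient genome duplication many large-subunit proteins kept a pair of genes, named A and B, whose products are nearly identical and whose coding sequences are so alike that cDNA of one copy can bind the spot of the other. The proteins are made in the cytoplasm, brought into the nucleus for assembly on ribosomal RNA, and carried out again with the subunit, while a few join late in the cytoplasm.

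Values are log2 ratios of the 2 channels, averaged over a gene's spots and set to 0 at the median gene of each array. The median was taken over the genes with a value on that array: 2476, 2852, 5448, 1326 and 1099 genes on arrays 1 to 5. The 0 point thus rests on a different set of genes on each array, and so does a change of side between arrays. The numerator of the ratios is not stated, so a sign says only on which side of the median gene a transcript lay and not which immunoprecipitate held more of it. Arrays 1, 2 and 5 run the same way as each other, and so do arrays 3 and 4. If the authors did not turn the values, the same side in both sets of arrays means opposite immunoprecipitates. Sides counted over all arrays are those of the values as deposited, unless stated. The standard deviation over spots was 2.51 log2 units on array 4 and between 0.96 and 1.17 on the others. Without intensities the signal over background is unknown, and precision is limited by having 5 arrays.

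Large-subunit transcripts had a value more often than the typical gene on arrays 2, 4 and 5 but not on arrays 1 and 3. On array 2, 68 of 80 large-subunit genes had a value (85.0%, 95% Wilson interval 75.6% to 91.2%), against 51.1% of all genes. Array 4 had values for 52 of 78 (66.7%, interval 55.6% to 76.1%), against 23.9%. Array 5 had them for 57 of 78 (73.1%, interval 62.3% to 81.7%), against 19.8%. Array 1 covered 28 of 80 (35.0%, interval 25.5% to 45.9%), against 44.3%, and array 3 covered 78 of 80 (97.5%), against 97.6%. The intervals cover counting error only and take genes as independent, which A and B copies are not. The small-subunit genes (RPS), the other part of the same ribosome, showed shares of 47.3%, 74.5%, 100%, 68.5% and 63.0% on arrays 1 to 5. Their intervals overlap those of the large-subunit genes on each array, which does not show that the shares are equal. For the mitochondrial large-subunit genes the shares were 47.1%, 61.8%, 100%, 24.2% and 12.1% on arrays 1 to 5. The sources used here do not say how an array came to lack a value for a gene, and whether signal strength played a part was not tested.

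**Figure D1:**
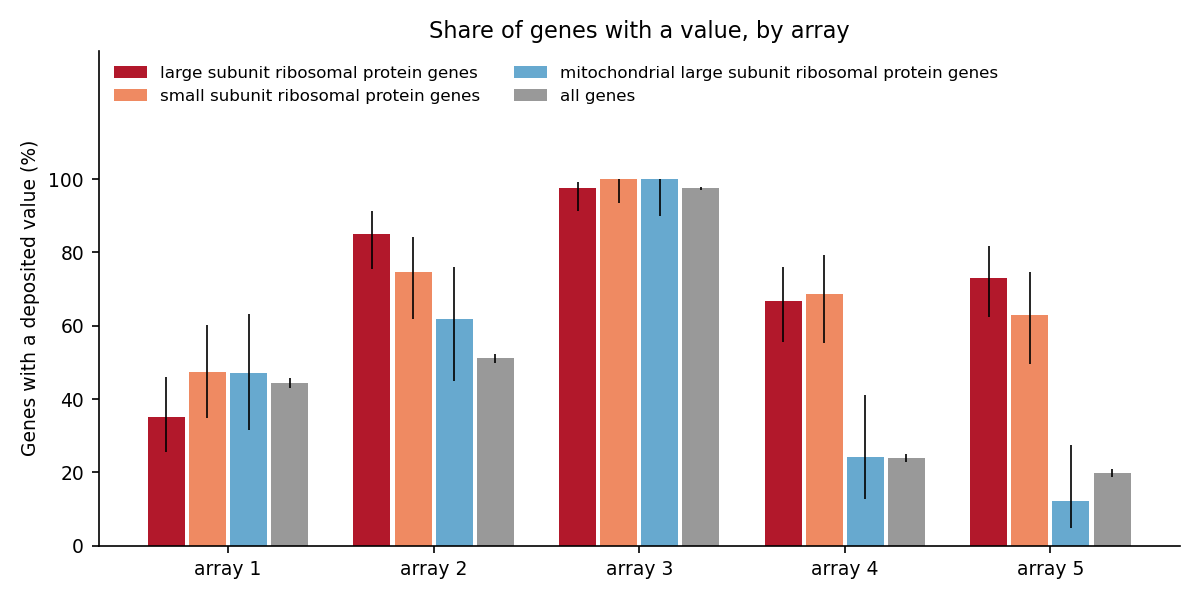
Share of genes with a deposited value (%, vertical axis) on each of the 5 arrays. Bars show large-subunit, small-subunit and mitochondrial large-subunit ribosomal protein genes and all genes, with 95% Wilson intervals as lines; on arrays 4 and 5 the bars of both cytosolic subunits stand at 63.0% or more and those of all genes at 23.9% or less.

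Of the 80 genes, 18 had a value on all 5 arrays, 29 on 4, 15 on 3, 15 on 2, 2 on 1 and 1 on none. The gene without any value was RPL6B. RPL19A had a value on array 2 alone (0.15) and RPL43B on array 3 alone (0.92). RPL29 and RPL36B were named on the first array design only. Genes with and without introns, by a list written from textbook knowledge, had values at 34.0% and 37.0% on array 1, 81.1% and 92.6% on array 2, 96.2% and 100% on array 3, 63.5% and 73.1% on array 4, and 65.4% and 88.5% on array 5, with 53 genes in the list with introns and 27 in the list without. The share was higher in the list without introns on each array. The Wilson intervals of both lists overlapped on each array, which does not show that the shares are equal, and no test was made.

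The large-subunit transcripts did not sit on one side of the median gene across the arrays. Their medians were 0.37, -0.57, 0.00, 0.75 and 0.23 log2 units on arrays 1 to 5, from 28, 68, 78, 52 and 57 genes. On array 2, 20 of 68 genes lay above the median gene, while on array 4 it was 36 of 52 and on array 5 it was 37 of 57. The small-subunit genes lay at -0.35, -0.51, 0.17, 0.57 and 0.02 on the same arrays, so both subunits lay below the median gene on array 2 and above it on array 4, while on array 1 their medians lay on opposite sides. These are descriptions of single arrays and carry no test.

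**Figure D2:**
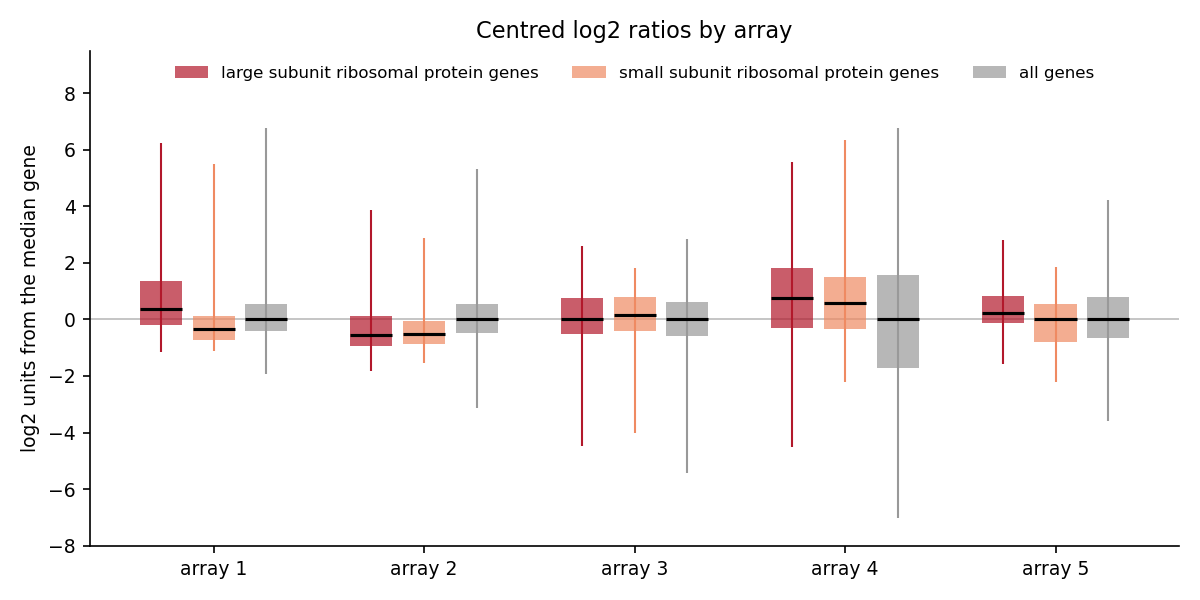
Centred log2 ratios (vertical axis, log2 units from the median gene) on each array for large-subunit genes, small-subunit genes and all genes. Boxes span the quartiles, black lines mark the medians and thin lines run from the lowest to the highest gene; the large-subunit median lies at -0.57 on array 2 and at 0.75 on array 4.

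Counts past 1 log2 unit from the median gene were set beside the same count over all genes. On array 1, 9 of 28 large-subunit genes lay over 1 unit above it, against 14.6% of all genes, and 1 of 28 over 1 unit below it, against 4.2%. On array 2 it was 10 of 68 above (against 12.8%) and 13 of 68 below (against 8.13%). On array 3 it was 13 of 78 above (against 12.4%) and 11 of 78 below (against 13.4%), which is close to the shares of all genes. On array 4, 21 of 52 lay above (against 32.7%) and 7 of 52 below (against 35.1%). On array 5, 11 of 57 lay above (against 20.8%) and 4 of 57 below (against 15.4%). The interquartile range of the large-subunit genes was 2.13 log2 units on array 4, against 3.31 for all genes, and 0.92 on array 5, against 1.46. On array 1 the range was wider, at 1.55 against 0.98.

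**Figure D3:**
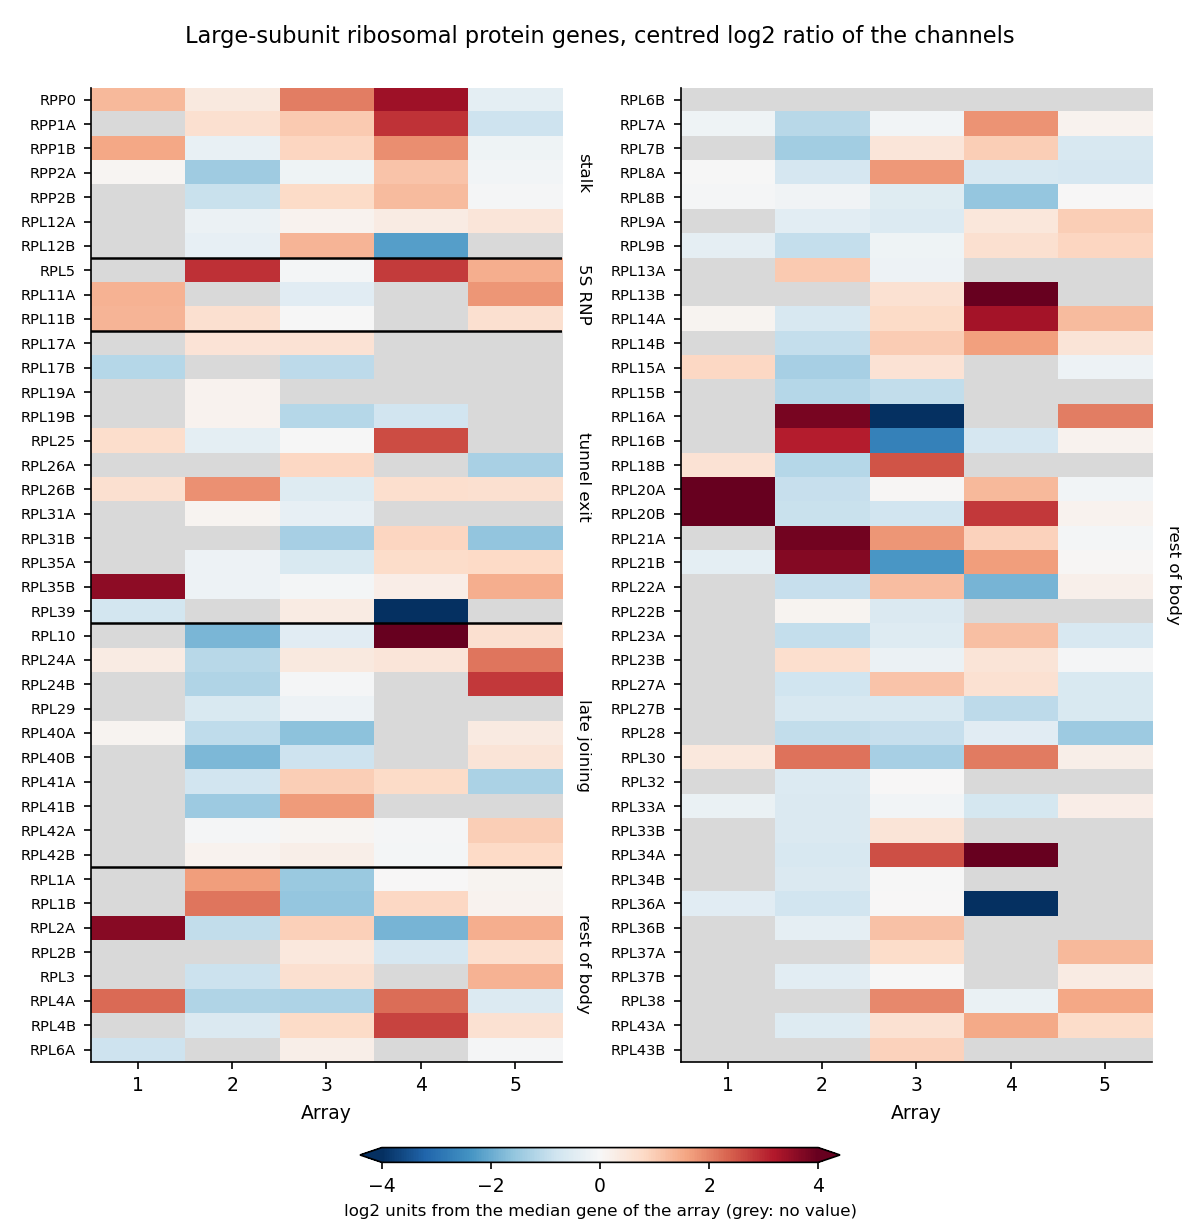
Heat map of the 80 large-subunit genes (rows, grouped by role) on arrays 1 to 5 (columns). Colour gives the centred log2 ratio of the channels, red above and blue below the median gene of the array. It is cut off at 4 units either way, and grey marks no value. Most genes change colour from array to array. Some A and B copies share deep colours on single arrays, as RPL20 does on array 1 and RPL21 on array 2. Others differ, as RPL21 does on array 3.

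The stalk is the flexible arm of the subunit that recruits and activates the GTPases of translation. Its base is P0, the product of RPP0, which carries the P1 and P2 proteins and sits on ribosomal RNA beside Rpl12. RPP0 lay at 1.31, 0.38, 2.04, 3.40 and -0.40 log2 units on arrays 1 to 5. It was above the median gene on 4 arrays, highest on array 4, and below it on array 5 alone. RPP1B, of the P1 proteins, lay at 1.54, -0.29, 0.87, 1.85 and -0.19, below the median gene on arrays 2 and 5, and RPP1A lay at 0.65, 1.03, 2.89 and -0.82 on arrays 2 to 5. Of the P2 genes, which lay below RPP0 and both P1 genes on each of arrays 1 to 4 where they had values but above them on array 5, RPP2A lay at 0.09, -1.41, -0.19, 1.15 and -0.10 on arrays 1 to 5, and RPP2B at -0.90, 0.76, 1.28 and -0.04 on arrays 2 to 5. On array 4 all 5 P-protein genes lay over 1 unit above the median gene, where 32.7% of all genes did. RPL12A lay at -0.22, 0.15, 0.32 and 0.47 on arrays 2 to 5, and RPL12B at -0.34, 1.36 and -2.21 on arrays 2, 3 and 4. On array 4 RPL12B was the only one of the 7 stalk genes below the median gene, while its copy RPL12A lay above it.

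Rpl5 and Rpl11 bind the 5S ribosomal RNA and enter the subunit with it as one particle. RPL5 lay at 2.92, -0.06, 2.80 and 1.46 on arrays 2 to 5. It was well above the median gene on arrays 2, 4 and 5 and level with it on array 3. RPL11A lay at 1.40, -0.45 and 1.75 on arrays 1, 3 and 5, and RPL11B at 1.35, 0.63, -0.03 and 0.64 on arrays 1, 2, 3 and 5. Together 8 of the 11 values of these genes lay above the median gene, beside 87 of 171 for the 48 large-subunit genes in none of the role groups. The 3 below it were those of array 3, where RPL5 and RPL11B lay close to it. RPL11A and RPL11B can share cDNA, so their values are not independent, and the count carries no test.

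The proteins at the exit of the peptide tunnel form the rim on which chaperones, modifying enzymes and the secretion machinery dock. RPL35B lay at 3.58, -0.21, -0.06, 0.27 and 1.45 on arrays 1 to 5, and its copy RPL35A at -0.20, -0.62, 0.75 and 0.79 on arrays 2 to 5. RPL26B lay at 0.63, 1.81, -0.51, 0.66 and 0.65, above the median gene on all arrays but array 3. RPL25, a docking point for the signal recognition particle, lay at 0.71, -0.40, -0.02 and 2.62 on arrays 1 to 4. RPL39, one of the smallest ribosomal proteins and part of the tunnel wall, lay at -0.72, 0.33 and -4.01 on arrays 1, 3 and 4. On array 5 the highest and lowest of these genes were RPL35B and RPL31B (-1.59), RPL31B being the lowest large-subunit gene there. The lowest on array 1 was RPL17B (-1.15). In all, 19 of 36 values of these 12 genes lay above the median gene.

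Several proteins join the subunit late, in the cytoplasm, among them Rpl10, whose insertion completes the peptidyl transferase region, and Rpl40, which is made as a fusion with ubiquitin. On array 2, 9 of these 10 genes lay below the median gene and 6 over 1 unit below it, where 8.13% of all genes did. RPL10 was the lowest large-subunit gene there and the highest on array 4, at -1.83, -0.44, 5.55 and 0.63 on arrays 2 to 5. On array 5, 7 of 8 lay above the median gene, led by RPL24B (2.82) and RPL24A (2.15), which encode an intersubunit bridge protein. RPL24A lay at 0.32, -1.11 and 0.40 on arrays 1 to 3 and at 0.49 on array 4. RPL41A, which encodes the smallest ribosomal protein, lay at -0.75, 0.98, 0.75 and -1.25 on arrays 2 to 5, and RPL40A at 0.11, -1.02, -1.64 and 0.37 on arrays 1, 2, 3 and 5. The group thus lay low on array 2 and high on array 5, although both arrays had zzYra1 in channel 2. Its medians there were -1.07 and 0.72. Large-subunit genes in none of the role groups went the same way less far, with medians of -0.63 and 0.15. Of these, 10 of 41 lay above the median gene on array 2 and 23 of 35 on array 5. Both copies of RPL24 and of RPL40, which can share cDNA, were among the 6 genes over 1 unit below on array 2.

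Among the other 48 genes, 87 of 171 values lay above the median gene. The largest ratios of the subunit on array 1 were those of RPL20A and RPL20B, a pair encoding a protein of the body of the subunit. RPL20A lay at 6.23, -0.91, 0.05, 1.29 and -0.11 on arrays 1 to 5, and RPL20B at 5.96, -0.89, -0.76, 2.83 and 0.15. Both copies were far above the median gene on array 1 and below it on array 2. RPL2A, whose product lies next to the peptidyl transferase centre, lay at 3.65, -0.996, 0.94, -1.85 and 1.45. RPL4A, whose product reaches into the peptide tunnel, lay at 2.26, -1.20, -1.24, 2.22 and -0.53, and RPL4B at -0.58, 0.76, 2.70 and 0.60 on arrays 2 to 5. Each of these changed sides of the median gene between arrays that run the same way, as RPL2A did between arrays 1 and 2.

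RPL30 encodes a protein that in yeast binds its own transcript and represses its splicing. It lay at 0.41, 2.16, -1.33, 2.08 and 0.23 on arrays 1 to 5, above the median gene on 4 of them. RPL14A lay at 0.11, -0.64, 0.76, 3.33 and 1.26, and RPL33A at -0.28, -0.57, -0.10, -0.71 and 0.26. RPL7A, RPL8A, RPL8B and RPL9B, whose products are parts of the body of the subunit, lay between -1.55 and 1.80 over the 5 arrays. The highest of these was RPL7A on array 4 and the lowest RPL8B on array 4. RPL34A was the highest large-subunit gene on array 3 (2.59) and also high on array 4 (4.81), with -0.65 on array 2. RPL13B lay at 0.60 on array 3 and 5.07 on array 4, and RPL36A at -0.45, -0.76, 0.02 and -4.50 on arrays 1 to 4, the lowest of the subunit on array 4. RPL28, the target of cycloheximide resistance mutations, lay at -0.97, -0.91, -0.44 and -1.46 on arrays 2 to 5, below the median gene on every array that measured it. With arrays 3 and 4 turned, it would lie below the median gene on arrays 2 and 5 and above it on arrays 3 and 4.

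The 34 A and B pairs served to ask how far spots for near-identical transcripts gave the same ratio. Both copies had a value in 3, 25, 32, 16 and 21 pairs on arrays 1 to 5. On array 2 the copies had the same ratio more closely than other pairs of large-subunit genes: the median difference between copies was 0.31 log2 units, against 0.83 between members that are not copies. It was 0.81 against 0.99 on array 3, 0.82 against 1.78 on array 4, 0.66 against 0.84 on array 5, and 0.05 against 1.23 over the 3 pairs of array 1. For scale, the median difference between a gene's own 2 spots was 1.71 on array 1 (3 genes), 0.62 on array 2 (8 genes), 1.05 on array 3 (18 genes), 0.23 on array 4 (46 genes) and 0.22 on array 5 (55 genes). On arrays 4 and 5, where the 2 spots of a gene are adjacent, copies differed by more than a gene's own spots did. On arrays 1, 2 and 3, where they are not adjacent, copies differed by less than a gene's own spots did, with few genes behind the values of arrays 1 and 2.

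Pearson's r between copies was 0.91 on array 2, 0.31 on array 3, 0.66 on array 4 and 0.55 on array 5, over 25, 32, 16 and 21 pairs. By ranks (Spearman) it was 0.66, 0.14, 0.77 and 0.55. These are correlations across pairs within an array, which share its RNA and its surface, and are given without a test. Without the 2 pairs farthest from the median they were 0.72, -0.13, 0.59 and 0.40, so on array 3 the value rests on 2 pairs. Copies lay on the same side of the median gene in 21 of 25 pairs on array 2 and 16 of 32 on array 3. The RPP1 and RPP2 pairs are diverged paralogs rather than near-identical copies. Without them r was 0.92, 0.30, 0.64 and 0.52, an alternative chosen after seeing the data.

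On array 2 the copies of RPL16, RPL1 and RPL21 all lay over 1 unit above the median gene, and those of RPL7, RPL15, RPL24 and RPL40 over 1 unit below it. RPL21A and RPL21B stood at 3.86 and 3.67 there, and RPL16A and RPL16B at 3.81 and 3.15. The closest copies on array 2 were RPL33A and RPL33B, both at -0.57, and the farthest RPL23A and RPL23B, at -0.95 and 0.66. On array 4 both copies of RPL4, RPL14 and RPL20 lay over 1 unit above. The largest differences on the other arrays were those of RPL21 on array 3 (1.78 for RPL21A and -2.32 for RPL21B), RPL12 on array 4 (0.32 for RPL12A and -2.21 for RPL12B), and RPL26 on array 5 (-1.31 for RPL26A and 0.65 for RPL26B). The closest were RPL1 on array 3 (-1.49 and -1.54), RPL42 on array 4 (-0.06 and -0.08), RPL27 on array 5 (-0.61 and -0.62) and RPL8 on array 1 (-0.02 and -0.04).

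**Figure D4:**
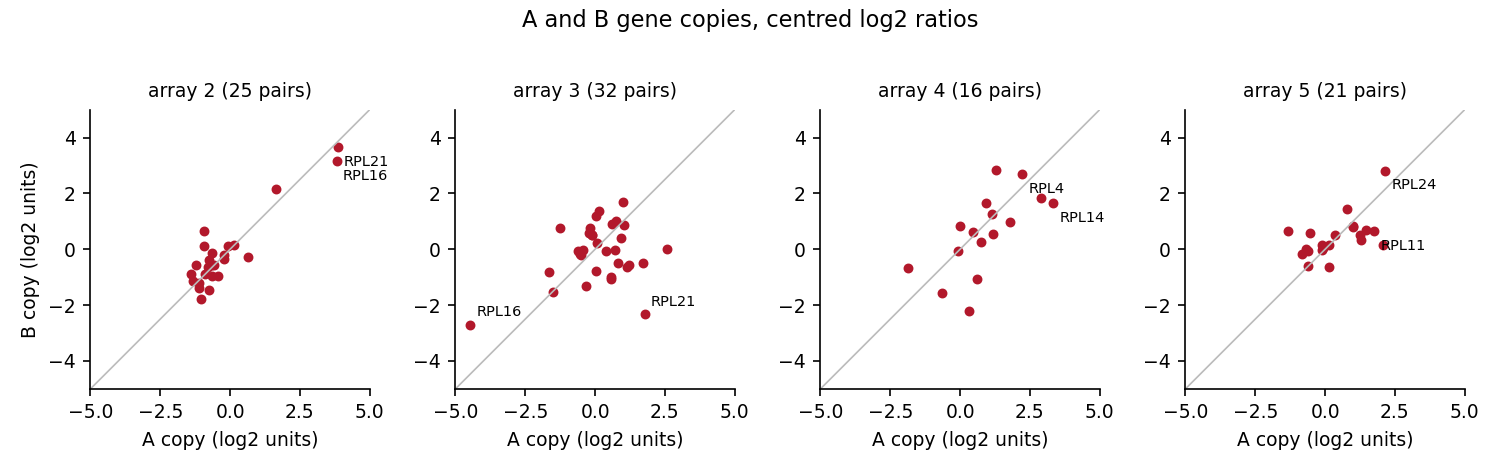
Centred log2 ratio of the B copy (vertical axis) against that of the A copy (horizontal axis) for each pair with both values on arrays 2 to 5, with the line of equality; array 1 is not shown because it had 3 such pairs. The points of array 2 follow the line up to RPL16 and RPL21 near 4, while on array 3 only RPL16 lies far out along it and RPL21 lies far off it.

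Arrays 2 and 3 held the immunoprecipitates in opposite channels, and a group of large-subunit genes lay on opposite sides of the median gene on them. Rpl16 is a conserved protein that binds ribosomal RNA in the body of the subunit. RPL16A lay at 3.81 on array 2, -4.48 on array 3 and 2.06 on array 5, and RPL16B at 3.15, -2.70, -0.67 and 0.15 on arrays 2 to 5. Both copies were thus high on array 2 and low on array 3, where RPL16A was the lowest gene of the subunit. RPL1A and RPL1B, which encode the mobile L1 stalk protein at the exit of spent tRNA, lay at 1.66 and 2.16 on array 2 and at -1.49 and -1.54 on array 3. RPL21B lay at -0.39, 3.67, -2.32, 1.67 and 0.04 on arrays 1 to 5, but its copy RPL21A at 3.86, 1.78, 0.92 and -0.09 on arrays 2 to 5 did not change sides between arrays 2 and 3.

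Of the 10 large-subunit genes over 1 unit above the median gene on array 2, 9 lay below it on array 3, where 53.6% of the genes with such a value on array 2 did. Of the same 10, 6 lay over 1 unit below it on array 3, against 17.8% of those genes. The 9 were RPL16A, RPL16B, RPL1A, RPL1B, RPL21B, RPL30, RPL26B, RPL5 and RPL13A, several of them copies that can share cDNA. Over the 67 large-subunit genes with both values, Pearson's r between the arrays was -0.43, against -0.02 over 2728 other genes, and Spearman's rho was -0.20. Without the RPL16, RPL21 and RPL1 pairs r was -0.13 over 61 genes, so the value rests on these pairs. Over the other 9 pairs of arrays, r across the large-subunit genes lay between -0.19 and 0.27. Array 4 held the immunoprecipitates in the same channels as array 3, but the genes did not go the same way on it: of the 9, 7 had a value on array 4 and 6 of them lay above the median gene there, where 57.4% of all genes with this pattern on arrays 2 and 3 did. The 6 were RPL5, RPL30, RPL21B, RPL1B, RPL26B and RPL1A, the last at 0.00, and RPL16B alone lay below. Of all 52 large-subunit genes with a value on array 4, 36 lay above the median gene. Whether the channel orientation played a part in the opposite sides on arrays 2 and 3 was not tested. These counts and correlations were looked for after the values were seen, compare genes within a pair of arrays, and carry no test.

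**Figure D5:**
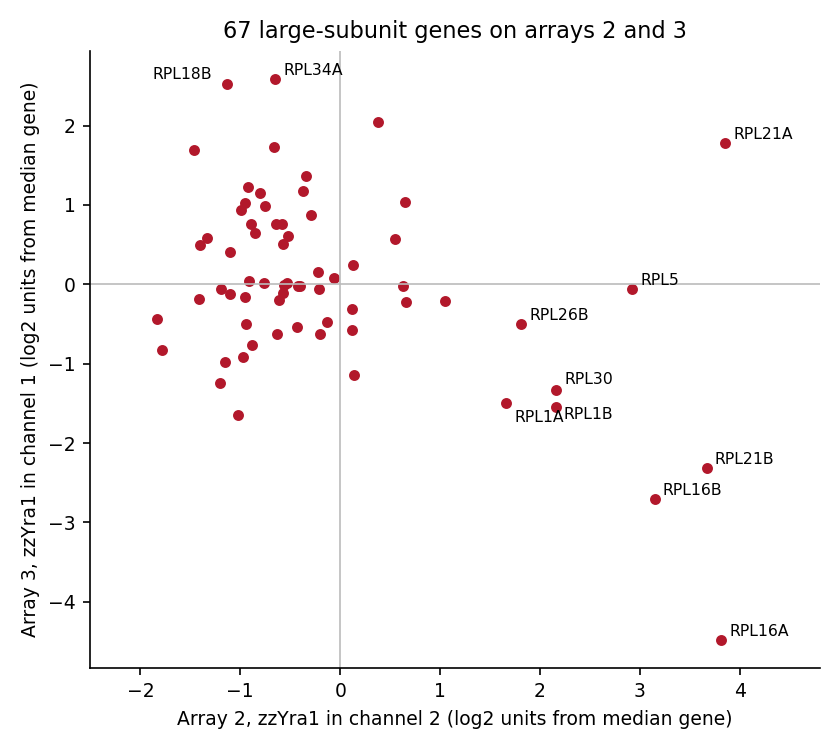
Centred log2 ratios of the 67 large-subunit genes with a value on both array 2 (horizontal axis, zzYra1 in channel 2) and array 3 (vertical axis, zzYra1 in channel 1), in log2 units from the median gene. The genes at the right, from RPL26B to RPL16A, lie below 0 on array 3 except RPL21A, and the cloud near 0 shows no such slope.

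To ask whether any large-subunit transcript differed from the median gene beyond the spread between arrays, all genes with a value on at least 4 arrays were fitted in limma, and p-values were adjusted over all of them (Benjamini-Hochberg). Because the direction of the ratios is unknown, 2 readings were taken from one model. In the channel reading every ratio has the same channel as numerator, so that arrays 3 and 4 are turned. In the other reading the authors are taken to have turned the values already. If one reading holds, the coefficient of the other measures a difference between the channels, whichever immunoprecipitate they held. No large-subunit gene passed an adjusted p of 0.05 among 47 tested in either reading, and no gene of the 725 tested did (0%). An unadjusted p under 0.05 was reached by 2 of the 47 in the channel reading and by 3 in the other, beside 19 and 25 of the 725. The median standard error over the 47 genes was 0.54 log2 units. Coefficients were positive for 24 of the 47 in the channel reading, beside 381 of the 725, with a median of 0.00, beside 0.06. In the other reading they were positive for 36 of the 47, beside 392 of the 725, with a median of 0.28, beside 0.07. With the spread of the arrays made equal it was 31 of 47 in that reading, beside 388 of 725. Without array 4 it was 30 of 55, beside 929 of 1811. Leaving out any other array kept the members' share further above that of all genes. These counts carry no test, and the genes share the same arrays.

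In the channel reading the highest large-subunit genes by moderated t were RPL16B (1.67 ± 0.67, standard error), RPL1A (0.82 ± 0.56) and RPL2A (0.91 ± 0.71), and the lowest were RPP0 (-1.14 ± 0.49), RPL41A (-0.94 ± 0.50) and RPP1A (-1.02 ± 0.58). All had an adjusted p of 0.905 in limma. In the other reading the highest were RPP0 (1.58 ± 0.49), RPL5 (1.78 ± 0.63) and RPL21A (1.62 ± 0.70), and the lowest RPL36A (-1.42 ± 0.74), RPL28 (-0.95 ± 0.50) and RPL40A (-0.91 ± 0.61), all with an adjusted p of 0.903. RPP0 had the highest moderated t of all 725 genes in this reading, and still did not pass. RPL16A had values on 3 arrays and entered when 3 were enough: its channel coefficient was then 3.71 ± 0.67, with an unadjusted p of 0.0017 in limma and an adjusted p of 0.990 over 2295 genes.

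Arrays that run the same way gave no call either. Each such set joins arrays of both designs. Over arrays 1, 2 and 5, 21 large-subunit genes were tested among 281 genes, of which 0% passed in limma and 0 of the 21 had an unadjusted p under 0.05, beside 6 of the 281. The highest were RPL26B (1.03 ± 0.42), RPL11B (0.87 ± 0.37) and RPL35B (1.61 ± 0.77), each with an adjusted p of 0.821, and the lowest RPL8A (-0.45 ± 0.37), RPP2A (-0.47 ± 0.45) and RPL7A (-0.38 ± 0.41). Over arrays 3 and 4, 52 large-subunit genes were tested among 1300, of which 0% passed. An unadjusted p under 0.05 was reached by 3 of the 52, beside 65 of the 1300, so the members' share was close to that of all genes. Those 3 were RPL34A (3.70 ± 1.36), RPL13B (2.83 ± 1.36) and RPP0 (2.72 ± 1.36), with an adjusted p of 0.958 in limma. The lowest were RPL36A (-2.24 ± 1.36), RPL39 (-1.84 ± 1.36) and RPL16B (-1.69 ± 1.36). All 52 had the same standard error in this fit, so it is pooled over genes and is not each gene's own spread. With the values as deposited, 0 of the 18 large-subunit genes with 5 values lay on the same side of the median gene on all arrays, beside 2 of 128 other genes. With arrays 3 and 4 turned, as in the channel reading, it was 0 of 18, beside 9 of 128. At such low shares among the other genes, a count of 0 among 18 does not set the large-subunit genes apart. Their median standard deviation over the arrays was 1.30 log2 units as deposited, against 1.13 for the other genes, and 1.42 with arrays 3 and 4 turned, against 1.12.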

How the data were processed

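Spotted arrays with 2 channels compared zzYra1 IP with zz IP in 1 group of 5 arrays. The authors deposited log10 ratios of the channels in 2 tables, 3 arrays of one design and 2 of another, with no centring. No label states that scale, and it was read from the numbers themselves: among 400 random values of each array, 27.0% to 92.5% were ratios of whole numbers (denominator up to 3000, tolerance 1e-09) when read as log10, and 1.75% or fewer when read as log2 or natural logarithms. The sources used here do not give scanner, background correction, dyes or direction. Multiplying the deposited log10 ratios by 3.32 gave log2 ratios, which were averaged over a gene's spots. Each array was then shifted to put its median gene at 0, with no loess or scaling, since many RNAs may shift one way in an immunoprecipitation. Genes were named from the platform annotation, updated to the R64 gene table. Arrays of the 2 designs were joined after centring each on its own.

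A limma model (version 3.58.1, R 4.3.3) with the channel orientation as an additive term took all genes with values on 4 or more arrays, and each orientation was fitted alone on genes with all its values. The fit was run on simulated data with independent normal noise and known shifts. That run checks the recovery of set shifts and gives no measure of what the fit can detect in these data. Members and lists were chosen with earlier results of these data known, so nothing here is independent of those. Genes were named by rule: those with 5 values, the 3 highest and 3 lowest by moderated t in each of the 4 fits, the extremes of each array, the closest and farthest copies, the stalk genes and genes with 1 value or none. Others belong to the role lists or were named after their values were seen. Alternatives were other centring, averaging, filters and scaling, and leaving out each array. All value columns were used.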

Additional observations from a re-analysis of the deposited data

Results flagged for a closer look

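Genes and summaries with 4 or 5 values were screened for a single array that stood apart, and 3 of 49 did. Chance alone flags about 1 in 20, which is 2.45 here. RPL27B lay at -1.06 log2 units on array 4, against -0.63 to -0.62 on the other 3 arrays that measured it. RPL42A lay at 1.00 on array 5, against -0.06 to 0.08 on the other 3, and its copy RPL42B was also highest there (0.81). RPL8A lay at 1.73 on array 3, against -0.67 to -0.02 on the other 4, while its copy RPL8B lay at -0.48 on that array.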

How the results depend on the processing

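The count of large-subunit genes past the limma threshold stayed at 0 in both readings under other filters, centring, averaging and equal spread. For arrays of one orientation it stayed at 0 with equal spread, with spots centred on nearby spots and, for arrays 1, 2 and 5, without each array in turn, the alternatives run there. Leaving out 1 array gave between 0 and 2 calls in the channel reading and between 0 and 6 in the other. Without array 3 the 2 were RPL10 (-3.08) and RPL36A (1.95), and the 6 were RPL10 (2.47), RPL14A (1.79), RPL20B (2.28), RPL5 (2.49), RPP0 (1.91) and RPL36A (-2.55), among 68 and 80 calls of 602 genes. With the spread of the arrays made equal, an alternative chosen after seeing the data, both counts without array 3 were 0. In the channel reading the call was RPL16A both without array 4 (3.71) and with equal spread and without array 1 (3.75). RPL16A had values on arrays 2, 3 and 5 only, so neither omission removed a value of it. Both calls therefore rest on the same 3 values, with array 3 alone in its orientation. Its coefficient was also 3.71 in the fit of all arrays that needed 3 values, where it did not pass. Where array 3 or 4 is left out, the other is alone in its orientation and is assumed to vary like the rest. Without array 3, 44 large-subunit genes were tested among the 602. The share of them called was below that of all genes in the channel reading and close to it in the other. Called genes with equal numbers of values had the same standard error there, so it was not each gene's own spread. RPL2A in the channel reading turned to -0.053 with equal spread and without array 1; the cause was not tested.

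Without centring the medians of the large-subunit genes were 3.06, -1.70, 2.27 and 1.76 on arrays 1, 2, 4 and 5, because each array's own median was then kept. Centring every spot on nearby spots (10 on each side, at least 5 measured) put the median on array 4 at 1.31, over 27 genes instead of 52. Where every spot of a gene had to have a value, 75.0% of the genes on array 2 did. The copies on array 3 gave r = -0.13 without 2 pairs. Between arrays 2 and 3 the correlation was -0.20 by ranks and -0.13 without the RPL16, RPL21 and RPL1 pairs, and -0.26 with every spot centred on nearby spots.

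The shared day of arrays 4 and 5 could not be fitted as a random block, since limma gave no correlation for 4 days over 5 arrays, and arrays 3 and 4 leave 1 array when either is dropped. Centring on nearby spots left too few copies on arrays 4 and 5 for a correlation. No paired analysis was possible because the arrays form 1 group. The number of arrays and the unknown direction of the ratios limit what these values can show.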
